A study of Homo sapiens with 30 samples.

Results

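H3K4me3 (trimethylation of lysine 4 of histone H3) and H3K9Ac (acetylation of lysine 9 of the same histone) were compared in parental MDA-MB-231 cells, an established human triple-negative breast cancer cell line. Each mark was profiled by ChIP-seq in 2 libraries, so 4 of the 18 libraries with a peak list, and 4 of the 30 samples of the series, carry the comparison. These cells had no knockout and no treatment named in the labels, and the only labelled difference between the groups was the antibody. The antibodies also came from different suppliers (CST for H3K4me3 and Abcam for H3K9Ac). The other libraries come from the same parental line (Pol II, SAP30, SIN3A and SIN3B) or from SAP30-KO1, a single knockout line for SAP30, and they are used only to describe the regions. Peak summits lying within 1000 bp of each other were joined, and a region counted for a mark when both libraries had a summit in it. This left 18303 H3K4me3 and 31188 H3K9Ac regions, which fell into 33248 places with either mark: 15655 with both marks, 15142 with H3K9Ac only and 2451 with H3K4me3 only. Over all 18 libraries there were 51282 joined regions.

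H3K4me3 is laid down by the SET1 and MLL family methyltransferases, whose complexes are drawn to unmethylated CpG-rich DNA, and it marks the start sites of active and poised genes. H3K9Ac is laid down mainly by the acetyltransferases GCN5 and PCAF and removed by histone deacetylases such as those in the SIN3 complex, and it is found at active promoters and at enhancers. An enhancer is known for acetylation with little H3K4me3. MDA-MB-231 is of the mesenchymal, basal B type, with low expression of luminal genes such as the estrogen receptor gene ESR1.

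The classes differed in their CpG content, given in full further on, and single regions are shown to let the difference be read. No region with both marks away from promoters is shown. Regions of that kind had a median of 9 CpG in 300 bp, and 29.5% were CpG-rich. Each sequence surrounds the best-ranked summit of the region, on the forward strand of GRCh37, in lower case with every CpG dinucleotide in capitals, and bases annotated as untranslated regions were left out. DHX15, an RNA helicase gene of pre-mRNA splicing on chromosome 4, had both marks at its promoter (chr4:24585748-24586016, 269 bases with 28 CpG). RAB39A, a small GTPase gene on chromosome 11, had H3K4me3 only at its promoter (chr11:107799295-107799557, 263 bases with 23 CpG). KIF26B, a kinesin family gene on chromosome 1, had H3K4me3 only in an exon 1366 bp from the nearest start site (chr1:245319526-245319825, 300 bases with 36 CpG). This region is not typical of its kind: H3K4me3-only regions away from promoters had a median of 10 CpG in 300 bp, and 33.2% were CpG-rich. LINC02783, a long noncoding RNA gene on chromosome 1, had H3K9Ac only at its promoter, with the best summit 660 bp from the start site (chr1:17516794-17517093, 300 bases with 6 CpG). The intergenic region whose nearest start site is that of LINC01728 had H3K9Ac only (chr20:42472930-42473229, 300 bases with 3 CpG).
DHX15 promoter, both marks: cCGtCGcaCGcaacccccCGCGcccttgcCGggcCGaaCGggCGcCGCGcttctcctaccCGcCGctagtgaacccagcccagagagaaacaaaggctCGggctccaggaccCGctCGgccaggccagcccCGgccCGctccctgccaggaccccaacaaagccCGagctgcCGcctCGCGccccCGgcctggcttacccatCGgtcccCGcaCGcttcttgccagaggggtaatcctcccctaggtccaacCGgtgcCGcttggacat
RAB39A promoter, H3K4me3 only: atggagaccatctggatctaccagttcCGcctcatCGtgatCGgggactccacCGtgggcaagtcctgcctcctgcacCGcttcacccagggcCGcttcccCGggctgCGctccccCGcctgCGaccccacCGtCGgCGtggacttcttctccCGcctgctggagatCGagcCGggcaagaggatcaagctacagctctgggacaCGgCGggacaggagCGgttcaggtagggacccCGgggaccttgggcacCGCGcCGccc
KIF26B exon, H3K4me3 only: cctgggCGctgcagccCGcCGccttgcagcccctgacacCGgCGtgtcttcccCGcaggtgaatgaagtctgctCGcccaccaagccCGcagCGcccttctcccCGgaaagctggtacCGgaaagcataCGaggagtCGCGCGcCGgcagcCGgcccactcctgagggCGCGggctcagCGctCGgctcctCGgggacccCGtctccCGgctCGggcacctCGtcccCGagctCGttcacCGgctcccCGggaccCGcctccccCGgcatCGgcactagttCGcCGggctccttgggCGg
LINC02783 promoter, H3K9Ac only: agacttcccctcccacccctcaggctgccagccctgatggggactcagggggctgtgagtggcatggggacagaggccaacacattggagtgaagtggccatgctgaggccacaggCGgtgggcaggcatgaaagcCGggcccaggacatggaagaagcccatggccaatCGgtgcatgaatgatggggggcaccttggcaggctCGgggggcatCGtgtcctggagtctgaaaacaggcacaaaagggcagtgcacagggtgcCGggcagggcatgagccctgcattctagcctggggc
LINC01728 intergenic region, H3K9Ac only: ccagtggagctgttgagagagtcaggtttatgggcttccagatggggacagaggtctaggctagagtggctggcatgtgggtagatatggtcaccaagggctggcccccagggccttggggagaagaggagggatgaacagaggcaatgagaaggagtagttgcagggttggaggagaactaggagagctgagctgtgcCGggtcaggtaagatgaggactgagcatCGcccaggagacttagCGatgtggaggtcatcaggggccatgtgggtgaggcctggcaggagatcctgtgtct

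The lists of the marks were of very different length. The H3K4me3 lists held 24079 and 22393 summits and the H3K9Ac lists 54622 and 53651, a ratio of means of 2.33, with no overlap between the groups. The mean ± SD was 23236 ± 1192 for H3K4me3 and 54136 ± 687 for H3K9Ac (n = 2 each, exact permutation test, two-sided p = 0.33, the smallest p that 2 libraries against 2 allow). After joining, the lists held 20224 and 20031 regions for H3K4me3 and 41338 and 39801 for H3K9Ac. The number of reads behind each list is unknown, and the peak names of the H3K4me3 lists carry a tag ("20perc") that those of H3K9Ac lack and whose meaning is not given, so a difference in the mark and one in depth or peak calling cannot be told apart. For this reason the score of a summit was used only as its rank within its own list, where 0% is the best and 100% the last. The libraries come from bulk cultures, so a mark on fewer cells and less of the mark per cell cannot be told apart, and 2 marks in one region need not lie on the same chromosomes.

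H3K4me3 summits lay mainly at promoters and H3K9Ac summits mainly elsewhere. Promoters were taken as the 1000 bp to either side of annotated start sites of coding genes and lncRNA genes. In the H3K4me3 libraries 67.7% and 67.1% of the summits were at promoters, and in the H3K9Ac libraries 33.3% and 35.0%, so the groups did not overlap. The difference of the means was -33.2 percentage points (exact permutation test, p = 0.33, the smallest possible). The share depended on the length of the list: with each list cut to its best 22390 summits, 70.9% and 67.1% of the H3K4me3 summits and 62.2% and 63.4% of the H3K9Ac summits were at promoters. This left a difference of -6.22 points, but it set 41.0% and 41.7% of the H3K9Ac lists against 93.0% and 100% of the H3K4me3 lists. With the better-ranked 50% of each list the difference was -39.1 points, wider than with the whole lists.

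Most H3K4me3 regions also had H3K9Ac, and the converse was much less frequent. Of the H3K4me3 regions 86.6% overlapped an H3K9Ac region, with 86.1% to 86.8% in the 4 pairings of single libraries. Of the H3K9Ac regions 51.4% overlapped an H3K4me3 region, with 43.1% to 45.1% in single pairings. The 15655 regions with both marks were 78.6% promoters, 10.3% introns and 9.68% intergenic. The 15142 regions with H3K9Ac only were 8.41% promoters, 57.1% introns and 31.0% intergenic, at a median of 14760 bp from the nearest start site. The 2451 regions with H3K4me3 only were 44.6% promoters, 27.6% introns and 23.4% intergenic. Read the other way, of 14676 promoter regions 83.9% had both marks, 8.67% H3K9Ac only and 7.45% H3K4me3 only, whereas of 18572 regions away from promoters 74.7% had H3K9Ac only, 18.02% both and 7.31% H3K4me3 only.

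**Figure D1:**
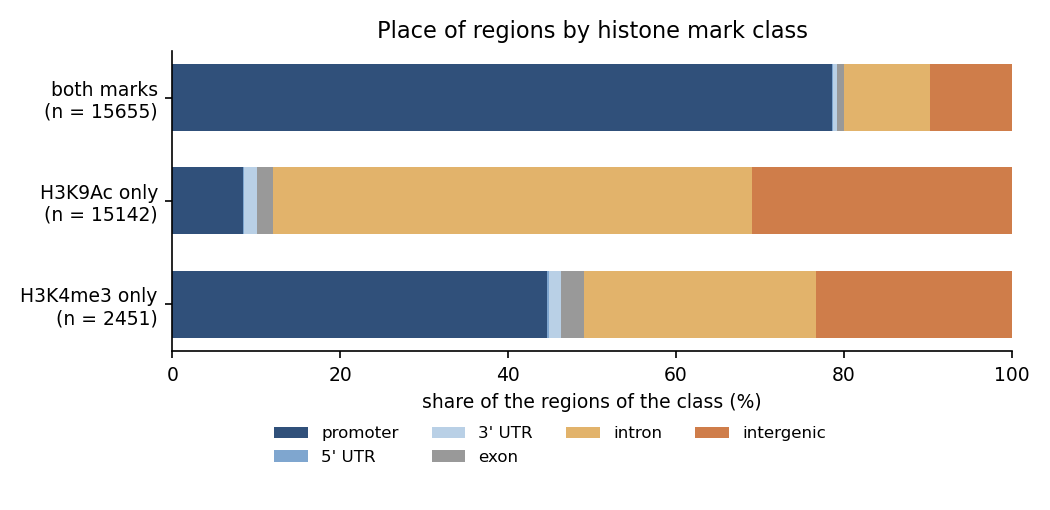
Horizontal bars give the share (%) of the regions of each class at promoters, in untranslated regions, exons, introns and between genes, for the 2 parental libraries of each mark. Promoters make up 78.6% of the regions with both marks, 8.41% of those with H3K9Ac only and 44.6% of those with H3K4me3 only.

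The single-mark classes were not alike in how fully the other mark was missing. Among the H3K9Ac-only regions 91.5% had no H3K4me3 summit within 1000 bp in either library, and 11346 (74.9%) had none within 5000 bp. Among the H3K4me3-only regions 53.9% had no H3K9Ac summit in either library and 44.8% had one in a single library, and 986 (40.2%) had none within 5000 bp. The H3K4me3-only regions ranked low. Their median H3K4me3 rank was 73.9% and 73.4% in the 2 libraries, against 33.8% and 35.9% for regions with both marks. The H3K4me3 summits of the 2 libraries spanned a median of 60 bp in these regions and 49 bp in regions with both marks. The H3K9Ac-only regions had median H3K9Ac ranks of 50.2% and 53.0%, against 16.2% and 16.9% for regions with both marks, and their H3K9Ac summits spanned a median of 658 bp against 363 bp. The class sizes moved with the settings: with lists of equal length there were 3807 regions with H3K9Ac only and 4970 with H3K4me3 only, so that the order of the single-mark classes turned. Leaving out H3K9Ac replicate 2, so that 1 library decided for that mark, gave 24126 regions with H3K9Ac only.

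The presence of the other mark followed the rank. Each list was divided by rank into 10 bins of equal size. At promoters, 97.6% of the H3K9Ac regions in the best bin also had H3K4me3, compared with 48.5% of those in the last. Promoter H3K4me3 regions had H3K9Ac in 97.9% to 98.7% of cases in each of the best 6 bins, then in 89.4%, 62.1%, 49.1% and 44.1%. Away from promoters the H3K9Ac regions lost the partner much sooner, from 88.1% in the best bin (177 regions) to 39.8% in the fourth and 7.86% in the last. The few H3K4me3 regions away from promoters (4881, of which the best bins held only 10 and 19) had H3K9Ac in 72.2% of cases over all ranks and in 56.3% in the last bin. Across the 12309 promoters with both marks, the ranks of the marks went together with Spearman coefficients of 0.66 to 0.72 in the 4 pairings, against 0.82 between the H3K4me3 libraries and 0.89 between the H3K9Ac libraries. Across the 3346 shared regions away from promoters the coefficients were 0.37 to 0.39 between marks, against 0.93 and 0.86 between libraries of one mark. These are coefficients across regions of 4 libraries, and the regions are not independent replicates.

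**Figure D2:**
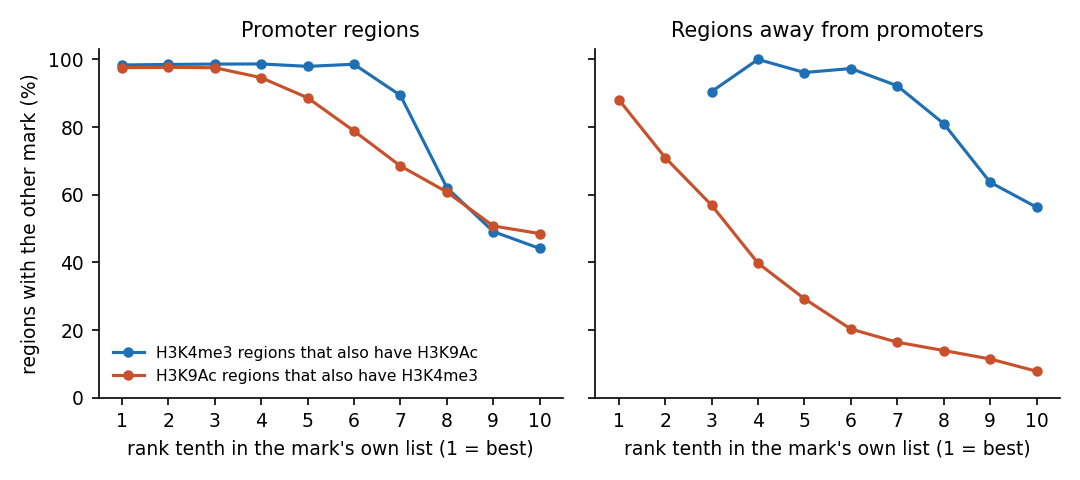
The share (%) of regions of one mark that also have the other mark is plotted against the rank of the region in the list of its own mark, in 10 bins from best to last, at promoters (left) and away from them (right), leaving out bins with few regions. At promoters the curves stand at 94.6% (H3K9Ac regions) and 98.7% (H3K4me3 regions) in the fourth bin and end at 48.5% (H3K9Ac regions) and 44.1% (H3K4me3 regions), and away from promoters the curve of H3K9Ac regions falls from 88.1% to 7.86%.

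CpG content separated the H3K9Ac-only regions from the other classes. In 300 bp around the best-ranked summit, the ratio of observed to expected CpG, which is near 1 where CpG is not depleted, had a median of 0.77 at promoters with both marks and 0.76 at promoters with H3K4me3 only, but 0.25 at promoters with H3K9Ac only. Around the canonical start sites of 19808 protein-coding genes the median was 0.80. Away from promoters the medians were 0.44 for both marks, 0.50 for H3K4me3 only and 0.19 for H3K9Ac only. Counting as CpG-rich a window with over 50% G and C and a ratio over 0.6, 78.2%, 75.4% and 14.6% of the promoter regions with both marks, H3K4me3 only and H3K9Ac only were CpG-rich, and 68.1% of the start sites. Away from promoters these shares were 29.5%, 33.2% and 1.16%. Among the regions with no summit of the other mark within 5000 bp, 45.1% of the 510 H3K4me3-only regions away from promoters were CpG-rich, compared with 0.708% of the 10729 H3K9Ac-only regions. Over all places together, the H3K4me3-only median ratio lay between 0.55 and 0.80 and the H3K9Ac-only median between 0.19 and 0.26 in every alternative setting of the classes that was run. At 85.4% of the H3K9Ac-only promoter regions the best-ranked summit itself lay within 1000 bp of a start site, and the median ratio there was 0.27, with 16.3% CpG-rich. With the same restriction, which was chosen after seeing the data, it was 0.77 for both marks and 0.77 for H3K4me3 only. The windows of the 2 single-mark classes are centred on summits of different antibodies, and the part of G and C content in the recovery of reads was not tested.

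Motifs were counted on both strands of the same windows. GGGCGG, the GC box bound by SP and KLF factors, was present in 60.3% of promoters with both marks, in 60.8% of those with H3K4me3 only and in 16.8% of those with H3K9Ac only, and in 61.7% of all start sites. TGANTCA, the AP-1 site, was present in 8.53% of the H3K9Ac-only, 6.75% of the shared and 8.99% of the H3K4me3-only regions away from promoters, and in 4.61% of start sites. GGAATGT, the TEAD site, was present in 4.47%, 2.93% and 3.32% of the same regions, and in 2.09% of start sites. CCGGAAG, an ETS site, was present in 6.11%, 2.44% and 6.22% of promoters with both marks, H3K9Ac only and H3K4me3 only, and in 13.5% of start sites, where the window is centred on the start itself. A match in such a window is not a bound site.

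**Figure D3:**
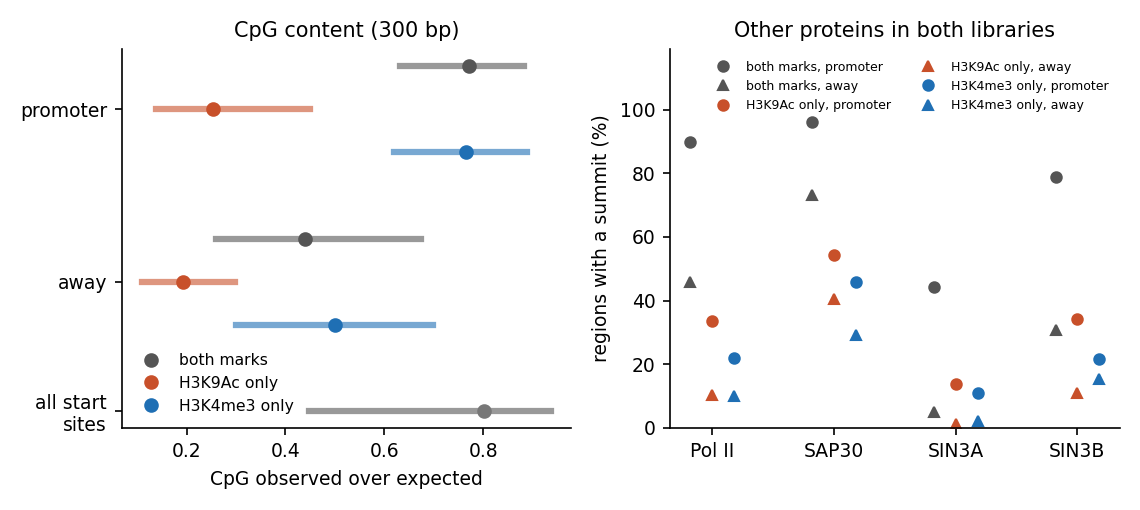
The left panel gives the median (point) and quartiles (bar) of observed over expected CpG in 300 bp around the summit for each class at promoters and away from them, and around all protein-coding start sites, and the right panel gives the share (%) of regions with a summit of Pol II, SAP30, SIN3A or SIN3B in both parental libraries (circles, promoters; triangles, away). H3K9Ac-only regions lie at 0.25 and 0.19 on the CpG axis, below both other classes, and regions with both marks have the highest share for every protein, both at promoters and away from them.

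Regions with both marks most often held the other proteins profiled in these cells. RNA polymerase II (Pol II), which transcribes protein-coding genes, had a summit in both of its libraries at 89.9% of the promoters with both marks, 33.6% of those with H3K9Ac only and 21.9% of those with H3K4me3 only. In the single Pol II libraries, which are the same for every class, the shares were 91.0% and 92.9%, 35.5% and 41.0%, and 23.4% and 25.4%. Each library gave the same order of classes. SAP30, a subunit of the SIN3 deacetylase complex, was at 96.1%, 54.4% and 46.0% of these promoters, SIN3B, a scaffold of that complex, at 79.0%, 34.2% and 21.5%, and SIN3A, the other scaffold, at 44.4%, 13.9% and 11.1%. Away from promoters Pol II was at 46.0% of the regions with both marks, 10.47% of those with H3K9Ac only and 9.95% of those with H3K4me3 only, and SAP30 at 73.1%, 40.6% and 29.1%. There the single-mark classes stood in the other order for SIN3B (30.6%, 10.95% and 15.4%) and SIN3A (5.02%, 1.18% and 2.21%). The classes also differed in rank, given above, and in the span of their regions. The median span was 595 bp for both marks, 658 bp for H3K9Ac only and 60 bp for H3K4me3 only, and a wider region has more room for a summit. The part of rank and of span in the shares was not tested.

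The SAP30-KO1 libraries, which the classes were not built from, mostly placed the regions in the same class. A region with both marks had both marks in all 4 knockout libraries in 90.8% of cases (96.3% at promoters, 70.4% away). An H3K9Ac-only region kept H3K9Ac in both knockout libraries without H3K4me3 in both in 73.4% of cases. An H3K4me3-only region did so for its mark in 42.8% of cases and had both marks in 15.3%. In 37.0% neither mark was called in both of its knockout libraries, though a summit in 1 library was possible. Of all H3K4me3-only regions, 26.1% had no H3K4me3 summit in either knockout library. The H3K4me3-only class was the one that recurred least, and the part of rank and of region span in this was not tested. Genotype and line cannot be told apart in these libraries.

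At promoters with both marks the summits lay close together and just downstream of the start site. The median distance of the best-ranked summit from the start site was 190 and 193 bp in the H3K4me3 libraries and 217 and 214 bp in the H3K9Ac libraries, in the direction of transcription. The H3K9Ac medians were both above those of H3K4me3, by 24 bp on average (SD 2.12 bp within each mark, n = 2, exact permutation test, p = 0.33, the smallest possible). Among the 8351 shared promoters with no start site on the other strand within 2000 bp, the fullest 50 bp bin was the one from 150 bp in both H3K4me3 libraries, with 16.0% and 17.6% of promoters, and the one from 200 bp in both H3K9Ac libraries, with 18.1% and 17.6%. H3K9Ac lay upstream more often. At these promoters 80.5% and 80.4% of its summits were downstream of the start site, compared with 86.8% and 87.0% for H3K4me3, and its upstream bins peaked from 300 and 350 bp before the start, with 2.08% and 2.12% of promoters, against 1.38% from 250 bp for H3K4me3. Where a start site on the other strand was near, at 3958 promoters, 73.6% and 74.1% of the H3K4me3 and 71.5% and 71.2% of the H3K9Ac summits were downstream.

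**Figure D4:**
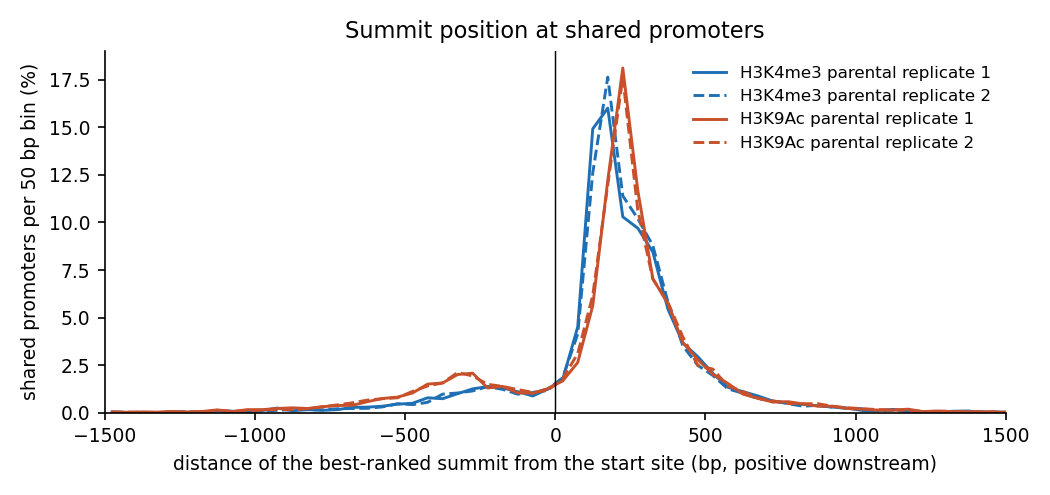
The share (%) of 8351 shared promoters without a start site on the other strand within 2000 bp is plotted per 50 bp bin by the distance of the best-ranked summit from the start site (bp, positive in the direction of transcription), one line for each parental library. The H3K4me3 lines peak in the bin from 150 bp and the H3K9Ac lines in the bin from 200 bp, and upstream of the start the H3K9Ac lines are the higher at about 300 bp.

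The distance between nearest summits of the 2 marks was longer than that between libraries of one mark. It had a median of 60 to 64 bp in either direction over the 4 pairings of an H3K4me3 with an H3K9Ac library, against 25 bp between the H3K4me3 libraries and 43 bp between the H3K9Ac libraries. Counted with its sign, the median was only 5 to 7 bp downstream for H3K9Ac, with lower quartiles of -61 to -57 bp and upper quartiles of 64 to 67 bp, and 67.5% to 67.9% of promoters had the nearest summits within 100 bp. At the 6320 shared promoters with a single summit in each of the 4 libraries, both H3K9Ac summits lay downstream of both H3K4me3 summits at 1893 (29.95%) and upstream of both at 1447 (22.9%), and the positions overlapped at 2980 (47.2%). At 52.8% of these promoters, then, both libraries of one mark lay to the same side of the other mark, in either direction. Some promoters would be split in this way if the 4 summits fell in any order, and the share was not tested against that. Shared regions held a mean of 1.25 and 1.15 summits in the H3K4me3 libraries and 1.39 and 1.45 in the H3K9Ac libraries, a difference of 0.22 (exact permutation test, p = 0.33, the smallest possible).

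**Figure D5:**
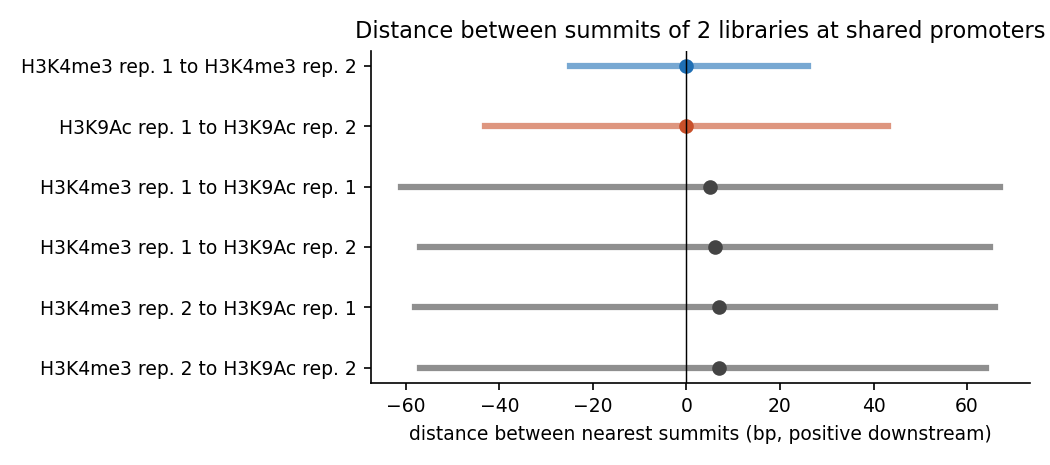
Points are the median and bars the quartiles of the signed distance (bp, positive in the direction of transcription) between nearest summits of a pair of libraries at 12309 shared promoters. The bars between marks reach from between -61 and -57 bp to between 64 and 67 bp, wider than the bars between the H3K4me3 libraries and between the H3K9Ac libraries, and all 4 medians are 5 to 7 bp.

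Single promoters varied in whether the marks lay farther apart than the libraries of one mark. At IPO7, a nuclear import receptor gene, the summits lay 89 and 152 bp (H3K4me3) and 130 and 150 bp (H3K9Ac) downstream of the start, so the marks overlapped. At MAPK1IP1L they lay 152 and 196 bp against 220 and 217 bp downstream, and at DHX15 279 and 231 bp against 400 and 371 bp, with H3K9Ac the farther in both. At STRN3, a striatin gene of the STRIPAK phosphatase complex, they lay 203 and 174 bp against 331 and 201 bp, overlapping narrowly, and at RAI14 168 and 262 bp against 90 and 193 bp, where the marks overlapped too. These 5 were the best-ranked joined regions with both marks whose start site was that of a protein-coding gene. ITGB1, the integrin beta 1 gene, had equally good ranks of 0.25% and 0.70% for H3K4me3 and 0.37% and 0.15% for H3K9Ac within 1000 bp of its start sites, but its summits of the 2 marks were 1035 bp apart, so they formed a region of each single-mark class while the gene counted as having both. Among promoters with a single summit per library, the longest 5 distances included promoters with the marks on opposite sides of the start site. At YY1, which encodes a zinc finger transcription factor, H3K4me3 lay 462 and 167 bp downstream and H3K9Ac upstream at -887 and -758 bp, a mean offset of -1137 bp. At FAT1, an atypical cadherin gene, the summits lay at 544 and 188 bp against -765 and -747 bp, an offset of -1122 bp. At NALF1 the order was the opposite, with H3K4me3 at -334 and -1121 bp and H3K9Ac at 563 and 494 bp, an offset of 1256 bp. MIDN had the longest, 1584 bp, with H3K4me3 at 1316 and 607 bp and H3K9Ac at 2176 and 2915 bp, but its libraries of one mark were themselves 709 and 739 bp apart. At CTC1, a telomere replication gene, the summits lay at -1398 and -1388 bp against -572 and 237 bp.

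Per gene, the marks were mostly present together or absent together. Of 20098 protein-coding genes, 12089 (60.2%) had both marks within 1000 bp of a start site in both libraries of each, 7026 (35.0%) had neither in both libraries, 736 (3.66%) had H3K4me3 only and 247 (1.23%) H3K9Ac only. Pol II had a promoter summit in both libraries at 93.3% of the genes with both marks, 46.6% of those with H3K9Ac only, 15.8% of those with H3K4me3 only and 1.25% of those with neither. The canonical start site was CpG-rich in 90.3% of the genes with both marks and 78.9% of those with H3K4me3 only, but in 39.2% of those with H3K9Ac only and 28.7% of those with neither. Part of both single-mark groups rests on the edge of the window: 152 of the 247 H3K9Ac-only genes had an H3K4me3 summit within 5000 bp of a start site in at least 1 library, and 378 of the 736 H3K4me3-only genes an H3K9Ac summit. With no summit of the other mark allowed at the promoter in either library, 165 genes with H3K9Ac only and 419 with H3K4me3 only were left. Promoter regions of long noncoding RNA genes alone made up 8.53% of the promoter regions with both marks, 17.3% of those with H3K4me3 only and 44.2% of those with H3K9Ac only.

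Genes that every cell uses carried both marks. Of 76 cytosolic ribosomal protein genes 74 had both, read against 60.2% of all genes, and 2 had neither. At RPS21 the H3K4me3 ranks were 0.76% and 2.22% and the H3K9Ac ranks 0.53% and 0.30%. Among the ribosomal protein genes with both marks the median rank was 9.91% and 17.4% for H3K4me3 and 3.71% and 4.99% for H3K9Ac, better than the 22.7%, 24.6%, 11.7% and 12.1% of all genes with both. All 29 genes of H3K9 acetyltransferases and deacetylases had both marks, including TADA3, an adaptor subunit of the GCN5 and PCAF complexes, at ranks of 1.64% and 3.27% for H3K4me3 and 0.37% and 0.04% for H3K9Ac, and the deacetylase gene HDAC1, at 0.71% and 3.15% against 5.78% and 5.66%.

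The genes that write and erase H3K4 methylation mostly had both marks, with 2 exceptions at good H3K4me3 ranks. Of 22 such genes 19 had both marks (86.4%, against 60.2% of all genes). Among them was KMT2A, which encodes the MLL1 methyltransferase, at ranks of 0.32% and 2.77% for H3K4me3 and 4.86% and 4.88% for H3K9Ac. KDM5B, an H3K4 demethylase gene, had H3K4me3 ranks of 4.23% and 14.4%, and its nearest H3K9Ac summits were 1167 bp (replicate 1) and 451 bp (replicate 2) from a start site. SETD1B, a SET1 family methyltransferase gene, had H3K4me3 summits 9 and 5 bp from a start site at ranks of 4.58% and 7.54%, with H3K9Ac 3090 and 2112 bp away. Both genes thus had H3K9Ac next to the promoter window, and KDM5B had it inside the window in 1 library. PRDM9, a methyltransferase gene of meiosis, had neither mark.

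The immediate early genes with H3K4me3 only were of the same kind. Of 29 genes for AP-1 subunits and other immediate early factors 25 had both marks (86.2%, against 60.2% of all genes) and 4 H3K4me3 only (13.8%, against 3.66%). KLF6, with ranks of 1.14% and 0.37% for H3K4me3 and 0.41% and 1.00% for H3K9Ac, and FOSL2, with 3.81% and 2.98% against 0.48% and 0.44%, were among the best-ranked with both. The 4 were JUNB, EGR1, EGR2 and EGR3, and each had an H3K9Ac summit within 1000 bp of a start site in 1 library and just outside in the other. At JUNB these lay 882 bp and 1809 bp away, at EGR1 999 and 1588 bp, at EGR2 427 and 1099 bp, and at EGR3 162 and 1434 bp. None of the 4 kept its class when no summit of the other mark was allowed in either library.

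Luminal and epithelial marker genes split across all classes, and their expression was not measured here. Of 35 luminal and epithelial marker genes 16 had both marks (45.7%, against 60.2% of all genes), 11 neither (31.4%, against 35.0%), 6 H3K4me3 only (17.1%, against 3.66%) and 2 H3K9Ac only (5.71%, against 1.23%). The best-ranked with both marks were XBP1 (H3K9Ac ranks 5.99% and 3.24%), KRT8 and KRT18 (both 1.10% and 2.92%) and KRT19 (4.67% and 8.62%). Pol II had a promoter summit in both libraries at each of these, and at 12 of the 35 genes in all. The H3K4me3-only genes were ESR1, PGR (the progesterone receptor gene), FOXA1 (a pioneer factor gene), CDH1 (E-cadherin), CLDN3 (a tight junction claudin) and ESRP1 (an epithelial splicing regulator). At ESR1 the H3K4me3 summits lay 584 and 557 bp from a start site, with ranks of 59.0% and 61.6%, and the nearest H3K9Ac summits 21134 and 21021 bp away. At PGR the H3K4me3 summits were 144 and 28 bp away with ranks of 66.2% and 65.9%, and the nearest H3K9Ac 115268 and 199028 bp. FOXA1 had H3K4me3 at 557 and 349 bp and H3K9Ac at 279173 and 4691 bp, and CDH1 had H3K4me3 at 96 and 17 bp and H3K9Ac at 4810 and 4669 bp. CLDN3 and ESRP1 each had H3K9Ac at the promoter in replicate 2 and the nearest one 30886 bp and 78909 bp away in replicate 1. None of the 6 had a Pol II promoter summit in either library. In the SAP30-KO1 line ESR1 had both marks in both libraries, FOXA1, ESRP1 and PGR had H3K4me3 in both and H3K9Ac in neither, and CLDN3 and CDH1 had neither mark in either. The 2 genes with H3K9Ac only were ELF3, an epithelial ETS factor gene with H3K9Ac ranks of 40.3% and 44.4% and no H3K4me3 within 25022 bp, and MUC1, a mucin gene, with H3K9Ac ranks of 69.1% and 6.39% and H3K4me3 2252 and 2270 bp away. Of 36 mesenchymal and basal B markers 28 had both marks (77.8%, against 60.2% of all genes). A further 6 had neither (16.7%, against 35.0%), namely CCN1, CDH2, SPARC, THY1, TWIST1 and TWIST2. The other 2, SNAI2 and COL6A2, had H3K4me3 only (5.56%, against 3.66%). Both had an H3K9Ac promoter summit in replicate 1, 209 and 162 bp from a start site. In replicate 2 the nearest H3K9Ac lay 1113 and 32415 bp away. VIM (vimentin) had ranks of 4.14% and 6.40% for H3K4me3 and 0.26% and 0.73% for H3K9Ac, and ZEB1, a repressor of epithelial genes, 3.12% and 0.93% against 0.46% and 0.42%.

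Developmental transcription factor genes were mostly without either mark. Of 114 genes 75 had neither mark (65.8%, against 35.0% of all genes) and 27 both (23.7%, against 60.2%). A further 11 had H3K4me3 only (9.65%, against 3.66%) and 1 H3K9Ac only. The 11 were DLX2, GSX2, HAND1, NEUROG2, NKX2-1, NKX2-8, OLIG1, PAX5, SIX3, SOX2 and VAX1, and 8 of them had no H3K9Ac summit at the promoter in either library. HAND1, a cardiac regulator gene, had H3K4me3 86 and 51 bp from a start site with ranks of 65.8% and 63.8% and the nearest H3K9Ac 31862 and 31879 bp away. NKX2-1, the thyroid and lung regulator gene, had H3K4me3 at 22 bp in replicate 1, with ranks of 82.3% and 84.3% and H3K9Ac at 141208 and 141228 bp. NEUROG2 had H3K4me3 at 718 and 540 bp and H3K9Ac at 120410 and 120542 bp, and PAX5 at 322 and 211 bp and 45943 and 45911 bp. Nearer H3K9Ac was found at SIX3, 1974 and 3061 bp from a start site, and at DLX2, 3716 and 2908 bp away, and DLX2 had Pol II in both libraries. SOX2 and GSX2 had an H3K9Ac promoter summit in replicate 1 and VAX1 in replicate 2. PAX8, a kidney and thyroid regulator gene, was the exception with H3K9Ac only, at ranks of 32.3% and 28.3%, with H3K4me3 5748 and 5741 bp away and Pol II in both libraries. TFAP2C and PITX1 had both marks, TFAP2C with ranks of 21.2% and 6.08% for H3K4me3 and 11.2% and 5.30% for H3K9Ac.

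Neuronal genes were mostly without either mark, and cytokine genes were divided. Of 34 cytokine and chemokine genes 16 had neither (47.1%, against 35.0% of all genes) and 15 both (44.1%, against 60.2%). A further 2 had H3K9Ac only (5.88%, against 1.23%) and 1 H3K4me3 only. CSF2, which encodes GM-CSF, had H3K9Ac 302 and 538 bp from a start site at ranks of 22.7% and 23.9%, with an H3K4me3 summit at the end of the list (rank 99.97%) in replicate 2 and none within 61966 bp in replicate 1. EBI3, an interleukin subunit gene, had H3K9Ac at ranks of 74.4% and 66.6% and H3K4me3 17676 and 17664 bp away. IL11 had H3K4me3 only, at ranks of 16.2% and 31.2%, with H3K9Ac 1325 and 516 bp away. Of 54 neuronal receptor and channel genes 47 had neither mark (87.0%, against 35.0% of all genes) and 4 both (7.41%, against 60.2%). A further 2 had H3K4me3 only (3.70%, against 3.66%), among them GLRA3, and 1 H3K9Ac only (GRIN2A). GRIN2A, a glutamate receptor gene, had H3K9Ac 206 and 132 bp away at ranks of 36.4% and 83.1%, with H3K4me3 397616 and 239628 bp away.

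Of 9 genes that the study followed singly, 8 had both marks, against 60.2% of all genes, and PDGFB had each mark in 1 library only. RDX (radixin, which links actin to the membrane) had the best ranks, 17.4% and 1.53% for H3K4me3 and 5.20% and 0.72% for H3K9Ac. IPO13, a nuclear import receptor gene, had 29.0% and 25.8% against 4.38% and 6.63%, and PDGFD, a platelet-derived growth factor gene, 46.1% and 49.0% against 50.4% and 31.7%. CLDN1, HSPA6, ARTN, NOTCH3 and ADM2 ranked between 24.6% and 76.2% in every list. At PDGFB the promoter summit was H3K9Ac in replicate 1 (rank 79.3%) and H3K4me3 in replicate 2 (rank 68.2%).

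The best-ranked single-mark regions with nothing of the other mark within 5000 bp stood at different ranks, each in the list of its own mark. Ranks in lists of different length are not a common measure of strength. The best 8 H3K9Ac-only regions away from promoters had mean ranks of 1.93% to 5.65%. They lay in an intron 14147 bp from the start site of FAM83C (ranks 1.94% and 1.93%), between genes near LINC01728 and TOX2 on chromosome 20 (1.69% and 2.55%), in 2 intronic regions of TOX2 (4.22% and 3.51%, and 5.25% and 3.37%), and 36429 bp from ANO1 (6.03% and 1.51%), 8279 bp from ITGA3 (4.33% and 4.07%), 83636 bp from TMEM63B (2.88% and 3.32%) and 63108 bp from MICAL2 (5.80% and 5.50%). All 8 had SAP30 in both libraries, 6 had Pol II, 6 had SIN3B and none SIN3A, against 40.6%, 10.47%, 10.95% and 1.18% of all H3K9Ac-only regions away from promoters. In the SAP30-KO1 line all 8 had H3K9Ac in both libraries and H3K4me3 in neither. Of all H3K9Ac-only regions away from promoters, 75.1% had H3K9Ac in both and 94.7% had H3K4me3 in neither. At promoters of genes with a symbol the best H3K9Ac-only regions were at LINC02783 (9.31% and 6.96%), VAMP5 (12.9% and 9.39%, with the best summit itself 1152 bp from the start site) and RXRA (12.5% and 11.3%), a nuclear receptor gene with the nearest H3K4me3 summit 50171 bp away.

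H3K4me3-only regions with no H3K9Ac nearby began only near the middle of the list. The best of 476 such promoters was that of KDR, the VEGF receptor 2 gene of endothelial cells, with ranks of 46.0% and 49.0% and no H3K9Ac within 43994 bp. DDIT4L (47.5% and 47.8%), C11orf97, VWA3B, LRAT (retinol esterification), WASHC1, RAB39A (51.3% and 52.5%) and AGAP8 followed. All 8 had H3K4me3 in both SAP30-KO1 libraries, against 69.2% of all H3K4me3-only promoter regions. Of the 8, 5 also had H3K9Ac in at least 1 SAP30-KO1 library, where 55.8% of all H3K4me3-only promoter regions had it in neither. WASHC1, AGAP8 and, away from promoters, the region near FOXD4L5 belong to families of near-identical copies, where reads cannot be placed with certainty. Of the 8 best regions away from promoters, 4 (near FOXD4L5, LINC02799, ENSG00000281904 and ENSG00000286473) held 4 to 10 copies of CTTTTTG on either strand in their 300 bp, a repeated unit that the other named regions lacked or, in the shared class, matched at most 1 time. The unit was counted after the sequences had been seen. Away from promoters the best were at mean ranks of 51.0% to 58.9%, and 2 of the 8 had SAP30 in both libraries and none Pol II, SIN3A or SIN3B, against 29.1%, 9.95%, 2.21% and 15.4% of all H3K4me3-only regions away from promoters.

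H3K9Ac-only regions away from promoters were unevenly divided among their nearest genes. The 13869 regions had 5234 protein-coding genes as their nearest, with a median of 2 regions each, and 173 genes with 10 or more held 16.8% of the regions. These genes were chosen after their values were seen. MYC had 31 regions, EXT1 30, BCAR3 28, KCNMA1 and PHLDA1 22 each, and CDC42EP3, FOXP1, MICAL2, NRG1 and ZMIZ1 21 each. The counts were not scaled to the length of sequence to which each gene is the nearest. SOX9 (20), NRP1 (19), KLF6 (19), PDGFC (18) and TGFB2 (18) were also among the 30 highest. Many of these regions lay far from the gene, at a median of 187919 bp for MYC, 215854 bp for NRG1 and 239131 bp for TGFB2, and 38660.5 bp for BCAR3. The nearest gene had both marks at its promoter for 76.5% of the regions, and neither mark for 18.3%. Of the regions 22.7% lay within 10000 bp of the nearest protein-coding start site and 39.4% over 50000 bp away.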

How the data were processed

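ChIP-seq was done in MDA-MB-231 cells. Per the labels and methods, chromatin was sonicated and the submitters' processing notes name FastQC 0.11.2, Bowtie2 2.3.3.1, Picard and MACS2 2.1.0 with genome hg19, without giving settings. The authors deposited 1 summit list per library. The deposited values are −log10 q-values of 1-bp summits, down to a q-value of about 0.05, without read counts, so depth and counting error are unknown. Scores were ranked within each list.

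Summits on chromosomes 1 to 22 and X were extended by 500 bp and joined on a shared base. Start sites and places came from GENCODE 44 mapped to GRCh37, and sequences from GRCh37. Groups of 2 libraries were compared by an exact two-sided permutation test, whose smallest p is 0.33. Where the groups do not overlap the test gives this p whatever the spread, so the p-values do not measure the spread between libraries. Nothing says that the libraries came from separate cultures, so the comparison is one of libraries only. Python 3.11.15, numpy 2.4.6, pandas 2.3.3 and pysam 0.24.0 were used, and the steps were tested on simulated lists.

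Members and gene lists were chosen with earlier results of these data known. Regions named were the 8 with the best mean rank per class at promoters and away, single-mark ones with no other-mark summit within 5000 bp. Genes named were up to 4 per class and list with the best mean rank, every gene the study followed, and the 5 best-ranked and 5 farthest-offset shared promoters. Not every gene so chosen is reported here. Other genes of the short single-mark groups, and those with many regions away from promoters, were added after their values were seen. Alternatives covered joining distance, rank and list length, replicates, overlap, promoter window and single libraries.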

Additional observations from a re-analysis of the deposited data

How the results depend on the processing

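The differences between marks in summits, promoter share, distance from the start site and summits per shared region kept their sign in every alternative run. Paired by replicate number (replicate block), they were the same values, 30900.5 summits, -33.2 points, 24.0 bp and 0.22 summits per region, with p = 0.5 in the exact test, the smallest that 2 pairs allow, and 2 pairs do not show whether the numbers pair the libraries. The promoter share differed by -39.1 points in the better-ranked 50% of each list and by -6.22 with lists of equal length. Leaving out 1 library gave -34.1 to -32.4 points, 30058 to 31744 summits, 22.5 to 25.5 bp and 0.17 to 0.27 summits per region.

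The class sizes moved, and the cause was not tested. H3K9Ac-only regions numbered 8703 in the better-ranked 50%, 3807 with equal lengths, 25597 with a summit in either replicate, and 14529 to 24126 without 1 library. H3K4me3-only regions numbered 4258 with 250 bp extension, 338 in the better-ranked 50%, 4970 with equal lengths and 1321 with no other-mark summit in either library. The share of H3K4me3 regions with H3K9Ac was 77.8% and 89.3% with 250 and 1000 bp extension, 96.9% in the better-ranked 50%, 72.1% with equal lengths, 88.9% with either replicate, 84.1% with an overlap of at least 50%, and 83.2% to 89.8% without 1 library. The share of H3K9Ac regions with H3K4me3 was, in the same order, 41.1%, 57.4%, 55.0%, 77.3%, 43.3%, 49.5%, and 41.6% to 53.4%. H3K9Ac-only genes numbered 681 with a 500 bp window, 844 in the better-ranked 50% and 114 with equal lengths. H3K4me3-only genes numbered 1328, 215 and 1604 in these settings and 419 with no other-mark summit in either library. Of the 34 listed genes with a single mark, 10 were in the same class in the better-ranked 50% and 30 with equal lengths.

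The distance between nearest summits of the marks, 62.0 bp on average over pairings, was 71.2 bp between best-ranked summits, 69.0 bp at promoters with 1 summit per library, 63.8 bp in the better-ranked 50%, and 61.5 to 64.0 bp without 1 library. With its sign, 6.25 bp, it was 8.25, 9.25 and 9.75 bp in the same order, and 5.5 to 8.0 bp without 1 library. Read depth is unknown, so a region without a summit is one not called, and the mark may be there below the threshold.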
